A study of Mus musculus with 6 samples.

Results

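The intervals described here are stretches of the mouse genome, given on build mm9, for which a gene expression microarray carried probes on the F strand, the R strand or both. They were chosen by name: every non-control probe of the A_30_P series whose target is a chromosome interval ending in F or R was taken, and probes with the same interval were grouped. This gave 16181 of the 55681 non-control probes of the array, in 4607 interval strands of 3540 intervals. Probes to both strands were present for 1067 intervals, to F alone for 1251 and to R alone for 1222. F and R are read here as the forward and reverse genome strand. The files do not say whether the letter marks the strand of the transcript or of the probe, and they give no transcript class, so the noncoding nature of the intervals was not checked.

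Long noncoding RNAs are transcripts without a long open reading frame, many of them capped, spliced and polyadenylated like messenger RNAs. Where both strands of one interval are transcribed, the RNAs can overlap as a sense and antisense pair or diverge from a shared promoter, and antisense RNAs are known to affect the gene opposite them at some imprinted loci and at the inactive X chromosome. The labelling kit used starts from the poly(A) tail and keeps the strand of the RNA, so RNA without a tail gives little signal.

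The arrays compared cells sorted from SMA-GFP transgenic mice, in which smooth muscle actin sequences drive a green fluorescent reporter. Both populations lacked the leukocyte antigen CD45 and the endothelial antigen CD31. The skin SMA+ cells came from dermis and had low reporter, and the wound SMA+++ cells came from wounds 7 days after injury and had high reporter, as contractile wound fibroblasts (myofibroblasts) do. Injury and reporter level therefore cannot be told apart. About 50 ng of RNA was labelled for each array. Of 3 arrays per population, 1 skin and 1 wound array carried interval probes, so the values below have no replicate check and no test, and the labels do not name the animals. The labels give no sex or age, and the design text names a human array where the files hold a mouse one.

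Acta2, which encodes smooth muscle actin, was 4.59 higher on the log2 scale in the wound array, against 4.96 and 4.46 in the 2 other skin and wound pairs. The other myofibroblast markers, Tagln and Cnn1, were 3.07 and 4.30 higher. All 5 fibroblast markers were well above background on both arrays (levels from 4.81 to 9.94 in skin and 3.52 to 9.80 in wound). On the log2 scale all 5 were lower in wound, from -0.06 for Col1a1 to -1.29 for Pdgfra. A level is the log2 processed signal minus the 75th percentile of its array. Keratinocyte and mural cell markers also differed between the arrays. The 3 keratinocyte markers lay between 0.86 and 3.40 in skin and between -2.08 and -0.26 in wound (Krt5 was 4.12 lower on the log2 scale, at 5483 intensity units in skin and 374 in wound), and the 3 mural cell markers between -1.80 and 1.52 in skin and between 1.81 and 5.95 in wound. The summed intensity of the markers was 8408 in skin and 1033 in wound for keratinocytes, 2492 and 59414 for mural cells, 48209 and 49813 for leukocytes (mostly Itgam, with all 4 leukocyte markers between -0.61 and -0.18 in scaled wound minus skin difference) and 6744 and 5886 for endothelial cells. Ptprc, which encodes CD45, was not well above background in wound, while the probes of 3 of 4 leukocyte markers and of all 3 endothelial markers were in both arrays. The part of these cells in the interval values was not tested, and in sorted bulk cells, fewer cells of a type and less RNA per cell cannot be told apart.

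The intervals spanned 62 to 7128487 bases, with a median length of 7315.5 bases, and lay on 20 chromosomes. The longest, chr7:39351858-46480344, had 1 probe. A strand carried 1 to 10 probes with a median of 3, and 327 of the paired intervals had 5 probes on each strand. All 983 intervals under 1 kb had probes on 1 strand only, whereas 54.4% of the 1203 intervals from 10 to 50 kb were paired. The files hold no probe sequences, so it is not known where in an interval a probe lies or which probes share a target.

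The interval probes were detected less often on the wound array than on the skin array. In skin, 62.5% of them were well above background by the scanner software's own call, and in wound 49.4%. The other probes stood at 76.4% and 70.0%. Of 15982 interval probes without an outlier mark, 7196 (45.0%) were detected on both arrays, 2777 in skin only, 617 in wound only and 5392 on neither. The lowest signal called well above background was 11.2 intensity units in skin and 20.5 in wound, or -5.53 and -4.91 as scaled levels, so the wound array measured less far down. Of interval probes with a skin level under -4, 37.0% were also detected in wound, against 86.2% at -4 to -2, 99.1% at -2 to 0 and 99.7% above 0. The other probes in the same classes gave 42.3%, 85.6%, 98.5% and 99.9%, so at matched skin level the 2 kinds of probe were kept at shares within 6 percentage points of each other.

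Position on the wound array moved with both detection and differences. The array has 384 rows of spots, and 5 of its 12 blocks of 32 rows had outlier marks on at least 1% of their wound spots. In those blocks 53.8% of interval probes were detected in wound, against 46.2% in the 7 other blocks, while the skin shares were 61.0% and 63.5%. Of interval probes measured on both arrays, 11.8% in the marked blocks and 6.94% elsewhere were at least 2-fold higher in wound, and 8.35% and 10.6% at least 2-fold lower. The other probes differed less between blocks, at 10.4% and 8.98% higher and 9.66% and 10.4% lower. On the skin array 1 block, the last and among the 7, had outlier marks on 1.42% of its spots, and the others on at most 0.45%. Without that block 612 interval probes were at least 2-fold higher and 629 lower, against 651 and 694 in all. Below, the marked blocks are those of the wound array, and the value without them is given where it moves a named value or a count by over 1.5 times.

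**Figure D1:**
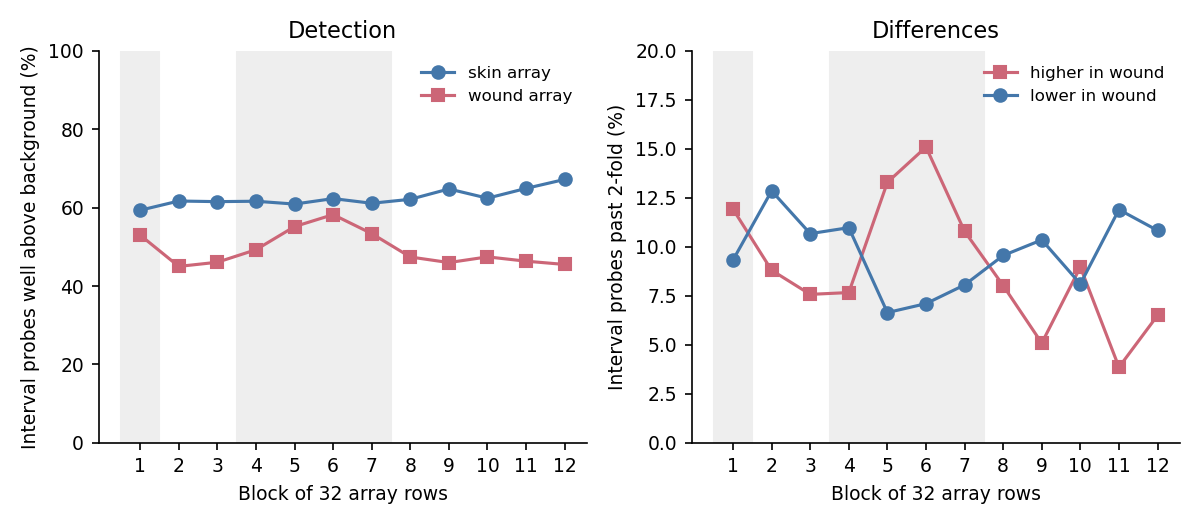
Share of interval probes well above background on each array (left) and at least 2-fold higher or lower in wound among those measured on both arrays (right), by block of 32 array rows; grey marks the 5 blocks with outlier marks on at least 1% of wound spots. The wound share is highest in grey blocks, and the higher share runs from 3.86% to 15.1% over the 12 blocks.

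Most paired intervals gave signal from both strands. Of 1065 pairs with a probe free of outlier marks on each strand, 897 (84.2%) had at least 1 detected probe on both strands in skin and 769 (72.2%) in wound. F alone was detected in 63 pairs in skin and 116 in wound, R alone in 73 and 129, and neither in 32 and 51. Neither letter was favoured on either array by more than 13 pairs, and single probes were detected at 60.6% for F and 64.2% for R in skin and at 47.4% and 50.4% in wound. More probes make a detection more likely, so the 287 pairs with 5 usable probes on each strand were counted apart. There both strands were detected in 258 in skin and 226 in wound, F alone in 10 and 25, and R alone in 19 and 33. In the 7 unmarked blocks, with fewer probes a strand, 651 of 910 pairs had both strands detected in skin and 460 in wound.

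**Figure D2:**
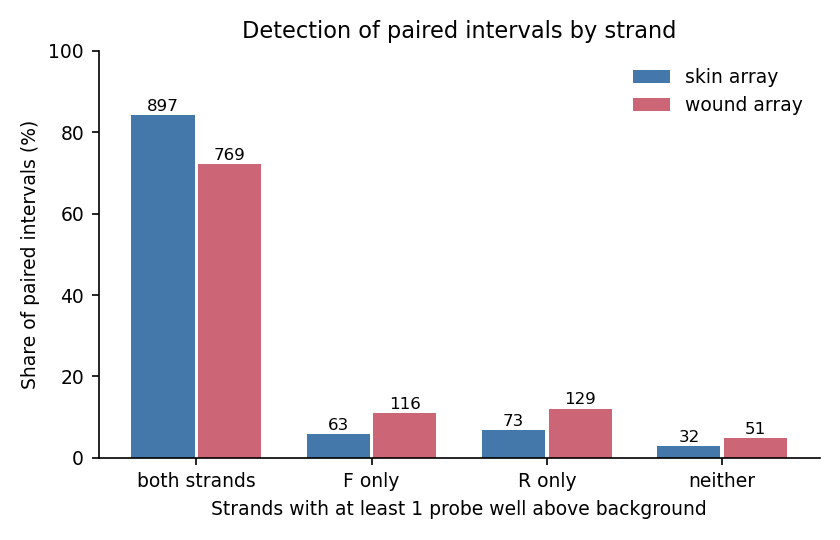
Share of the 1065 paired intervals by the strands with at least 1 probe well above background, in skin and in wound; the number of pairs stands above each bar. Both strands were detected in 897 pairs in skin and 769 in wound.

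The same strands were detected on both arrays in 857 of the 1065 pairs (80.5%). The main move was a loss of 1 strand: 77 pairs went from both strands in skin to F alone in wound and 69 to R alone, while 13 and 12 went the other way. Detection passed from one strand to the other in 2 pairs. In chr16:25517037-25531362 it passed from 1 of 5 F probes in skin to 1 of 5 R probes in wound, and in chr7:49715933-49771497 from the single R probe to 1 of 10 F probes, so each switch rested on 1 probe a side. A stricter reading found few one-stranded intervals. Among 875 pairs with at least 2 probes a strand, 5 had all F and no R probes detected on both arrays, 5 the reverse, 24 every probe of both strands and 5 no probe at all.

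The share of measured interval probes that differed 2-fold was close to that of the rest of the array. Of the 7196 interval probes detected on both arrays, 651 (9.05%) were at least 2-fold higher in wound and 694 (9.64%) at least 2-fold lower. Of all 33133 probes measured, 9.47% were higher and 9.98% lower, and of the 25937 other probes 9.59% and 10.1%. The median wound minus skin difference was -0.13 for interval probes (quartiles -0.55 and 0.37) and -0.03 for other probes. F probes gave 8.73% higher and 9.84% lower, and R probes 9.35% and 9.46%, so the letters stood near each other as well. Interval probes were dimmer than the rest. Of those measured, 16.5% had a mean level under -4 and 51.3% one between -4 and -2, against 6.43% and 24.3% of the other probes. Under -4, 12.1% of interval probes were higher and 1.94% lower, with a median difference of 0.22, and the other probes there gave 14.6% and 1.62%. Measured probes had to pass floors of -5.53 in skin and -4.91 in wound. In this class that leaves less room for lower than for higher probes, so its excess of higher probes is not read as a result. From -4 to -2, 9.15% of interval probes were higher and 11.2% lower, against 12.3% and 14.2% of other probes, so at like brightness fewer interval probes were past 2-fold there. From -2 to 0 the interval shares were 6.78% and 11.8% and the other shares 9.17% and 12.5%. Above 0 they were 8.20% and 9.98%, against 7.71% and 7.96%, with medians of -0.13 and -0.0021.

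**Figure D3:**
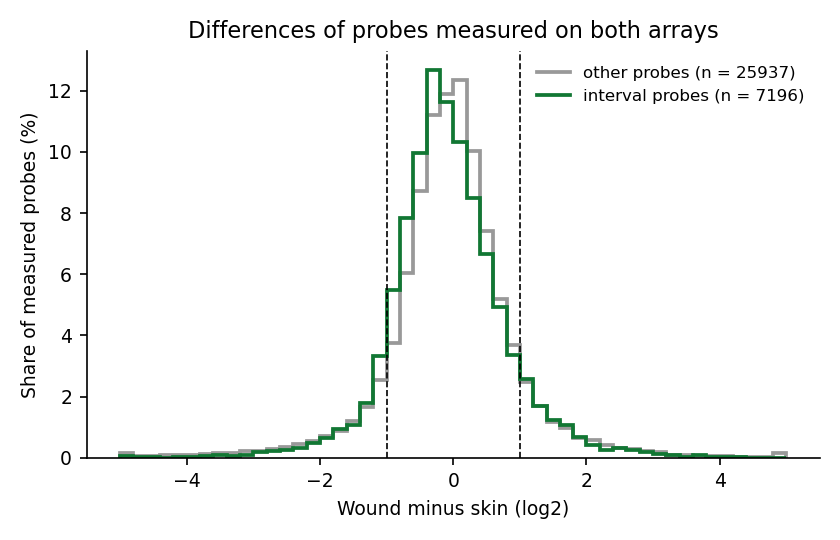
Distribution of wound minus skin differences on the log2 scale for interval probes and for all other non-control probes detected on both arrays, as a share of each set; dashed lines mark 2-fold and the end bins take in more extreme values. The interval curve sits slightly left of the other, with medians of -0.13 and -0.03.

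Dim probes are also the least repeatable, as far as the gene probes show. For 22956 gene probes also present on the other array design and detected on all 6 arrays, the SD of the difference over the 3 skin and wound pairs had a median of 0.40 at levels of -4 to -2 and 0.24 above 0. Of those at least 2-fold different in the pair used here, 36.1% at levels of -4 to -2 were so in the same direction in both other pairs, against 61.7% above 0. Under -4 it was 4 of 30 (13.3%). The interval probes are absent from the other design and have no such check.

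Probes were combined into strands to lean less on single spots. At least 2 measured probes were available for 1885 interval strands of 1548 intervals, and the value of a strand is the mean difference over those probes. In wound, 92 strands (4.88%) were at least 2-fold higher and 121 (6.42%) at least 2-fold lower, against 7.66% and 7.49% of 3565 accessions of other probes with at least 2 measured probes. Of these strands, 45 higher and 45 lower ones had every measured probe past 2-fold. The SD over the probes of a strand had a median of 0.38 (quartiles 0.19 and 0.67), against 0.20 within an accession of the other probes. This SD is a spread over probes, not over animals. Of 945 F strands 46 (4.87%) were higher and 64 (6.77%) lower, and of 940 R strands 46 (4.89%) and 57 (6.06%). In the 7 unmarked blocks 44 of 1006 strands were higher and 74 lower. Strands nearest the threshold were chr15:85510625-85511265 F at -1.001 and chr7:99879368-99889978 R at 1.002 just inside it, and chr5:73771801-73772662 F at -0.998 and chrX:92149320-92151107 R at -0.999 just outside.

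Shares of higher strands were alike over the length classes, and those of lower strands varied more. Strands at least 2-fold higher were 5.42% of those under 1 kb, 5.05% at 1 to 10 kb, 4.51% at 10 to 50 kb and 5.15% over 50 kb, and strands at least 2-fold lower were 9.39%, 4.85%, 5.85% and 8.09%. By chromosome, 10 of 102 strands on chromosome 12 were higher and 3 lower, and on chromosome 16, 5 of 63 were higher and 11 lower. A single group of neighbouring strands, described below, held 5 of the higher strands on chromosome 12. Another held 3 of the lower strands on chromosome 16. Shares of the other probes by chromosome were not computed. Chromosomes 17 and 19 had 0 higher strands, of 113 and 47, with 4 and 3 lower. Many of these strands overlap and are not independent, and intervals on chromosome 18 are counted and not named.

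Of the 8 largest increases 6 were on R, whereas F and R each had 46 strands at least 2-fold higher. The R strand of chr7:128341797-128414692, an interval of 72896 bases, was the one with all 5 probes measured. Its probes read 106.7 to 488 intensity units in skin and 978 to 5841 in wound, and each was higher, by 2.95 to 3.34 on the log2 scale. The mean difference was 3.14 ± 0.14 (SD over probes), or 8.79-fold, and 3.07 over the 3 probes outside the marked blocks. On its F strand 2 of 5 probes were detected in skin and 1 in wound. All R probes of this interval therefore moved together, and the F strand had too few measured probes for a value.

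The largest increase was on the R strand of chrX:50407969-50410370. Of its 3 probes, 2 were measured on both arrays, at 15.9 and 16.4 intensity units in skin and 232 and 324 in wound, giving 3.84 ± 0.31. The third was not well above background in skin and read 438 in wound. The R strand of chr5:91480533-91502237 had the same form, with 14.8 and 17.4 units in skin and 176 and 213 in wound (3.35 ± 0.024). The skin readings of both lay close to the detection floor of that array, so the sizes of these differences depend on how background was taken off.

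The other strands among the 8 largest increases started at skin levels from the floor to well above it. In chr1:183832694-183834125 the R strand read 103 to 181 units in skin and 826 to 1590 in wound over 3 probes (2.79 ± 0.086). In chr2:94008913-94019798 the R strand read 13.0 to 32.4 and 92.8 to 240 over 4 probes, with every probe between 2.54 and 2.84 higher. The F strand of chr12:110894095-110899517, the brightest of the group, read 641 and 1385 units in skin and 5071 and 8680 in wound (2.57 ± 0.24). In each of these strands the skin and wound readings of the probes did not overlap. The R strand of chr12:74135916-74142780 (2.97 ± 0.43, 2 of 5 probes measured) and the F strand of chr16:84707202-84707748 (2.72 ± 0.25, 2 probes) completed the list.

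The largest decrease was on the R strand of chr1:160888257-160910594. Its 2 measured probes read 395 and 1169 units in skin and 33.7 and 32.04 in wound, a mean difference of -4.61 ± 1.16, and the third read 490 in skin and was not well above background in wound. The probe at -5.43 lay in a marked block, and the probe outside gave -3.80. The F strand of chr19:60220577-60238494 read 378 and 827 units in skin and 39.5 and 59.5 in wound (-3.77 ± 0.38). Neither interval has probes on the opposite strand. For these strands a clear skin signal stood against a wound signal near the floor.

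Of the 8 largest decreases, 3 lay close together on the F strand of chromosome 5. In chr5:14943275-14944205, 2 probes read 3424 and 3731 units in skin and 391 and 331 in wound (-3.56 ± 0.26). In chr5:15146475-15170100, 4 probes read 308 to 3762 and 40.6 to 375 (-3.53 ± 0.32). In chr5:15033568-15033987, 3 probes gave -2.87 ± 0.98. The skin and wound readings of the first interval do not overlap, and each probe of the other 2 was lower in wound.

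The remaining large decreases had probes that disagreed. For the R strand of chr4:98943050-98959998 the mean of -3.69 came from 2 measured probes at -6.09 and -1.29. For the F strand of chr12:77544397-77564122 the mean of -3.06 came from 2 of 6 probes, at -4.75 and -1.38. In each case the probe with the larger change lay in a marked block of the array, and the probe outside it gave -1.29 and -1.38. On the chromosome 12 F strand, 2 further probes were detected in wound only. They read 9.95 and 5.04 units in skin and 28.1 and 31.7 in wound. Another probe there was detected in skin only, with a difference of -0.86. None of these probes is in the mean. The F strand of chr3:27837825-27880925 read 126 to 409 units in skin and 25.7 to 80.4 in wound over 3 probes outside the marked blocks, which gave -3.56, -2.63 and -0.89. The scanner software's own spot errors, carried through to the mean difference, lay between 0.065 and 0.24 over all 40 named strand values, below the SD over probes in the discordant strands.

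Some strands were detected on 1 array only, and for these the difference has only a bound: the mean level where the strand was detected against the detection floor of the other array or the dim probe's own level, whichever was higher. Of strands with at least 2 detected probes on one array and none on the other, 13 were seen in wound only and 159 in skin only. All 13 of the first and 22 of the second had a bound past 2-fold. These were 0.333% and 4.07% of the 3907 strands with at least 2 usable probes, and 9 (0.174%) and 73 (1.41%) of 5184 accessions of other probes were seen in wound only and in skin only. Bounds past 2-fold were held by 0.333% and 0.563% of strands and by 0.174% and 0.328% of accessions. The strand with the highest wound bound, the R strand of chr4:33369310-33369871, was at least 8.88-fold higher, followed by the F strands of chr15:100909469-100910253 (at least 6.31-fold), chr4:63810346-63810958 (at least 5.89-fold) and chr14:72400656-72400887 (at least 5.62-fold). For the first and the last of these, 0 of the detected probes lie outside the marked blocks of the wound array. In wound, all 3 probes of chr4:63810346-63810958 were detected, and 2 of 3 in each of the others. The undetected probe of chr14:72400656-72400887 was lower, at 9.76 units in skin and 4.44 in wound. That of chr15:100909469-100910253 read 8.47 and 13.3, and that of chr4:33369310-33369871 read 5.09 and 23.9. The highest skin bounds were at least 3.51-fold lower in wound for the R strand of chr8:85952719-85958369, at least 3.47-fold for the F strand of chr10:66383049-66386347, and at least 3.098-fold for the F strand of chr14:78957377-78962977, and at least 3.095-fold for the R strand of chr13:21264306-21264482. The chromosome 14 bound among these rests on 1 probe, at 178 units in skin and 6.05 in wound, since its other detected probe read 16.2 and 19.0 and its 3 undetected probes were not lower in wound. Skin-only strands outnumber wound-only strands, and the wound array also has the higher floor, whose part in this was not tested. With floors at -5.53 in skin and -4.91 in wound, a bound past 2-fold is easier to reach for a wound-only strand. The 13 of 13 and 22 of 159 are therefore not a like comparison.

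The question of the strand pair is whether both strands of an interval differ together. Both strands had at least 2 measured probes in 337 intervals. Both were at least 2-fold higher in 3 of them and at least 2-fold lower in 3. With normexp background, which raises dim readings, both counts were 0: each of the 6 intervals kept its signs, and at least 1 of its strands fell short of 2-fold. Without the marked blocks both strands were higher in 1 interval, which is not among the 3, and lower in the same 3, and a single strand was past 2-fold in 26. The 3 higher intervals dropped out because a strand of each kept fewer than 2 measured probes. Their remaining probes gave 1.98 on F and 1.68 on R in chr16:84702353-84710928 and 1.17 and 1.27 in chr12:110944403-110988678. In chr1:183783306-183834531 they gave 1.94 on R and no value on F. Among all 1885 strands with at least 2 measured probes, 11.3% were past 2-fold in either direction. A single strand was past 2-fold in 54 of the pairs, neither in 277, and in 0 were the strands past 2-fold in opposite directions. The strands had the same sign in 200 pairs (59.3%), with a Pearson correlation across the 337 intervals of 0.23 and a Spearman correlation of 0.26. These points share 1 pair of arrays, and intervals are not replicates. In the 146 pairs of the unmarked blocks the Pearson correlation was 0.38. When 1 measured probe a strand was enough, 7.80% of 3335 strands were higher, 7.89% lower and 15.7% either, and 702 pairs gave 7 with both higher, 3 with both lower, 2 opposite and a Pearson correlation of 0.06.

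**Figure D4:**
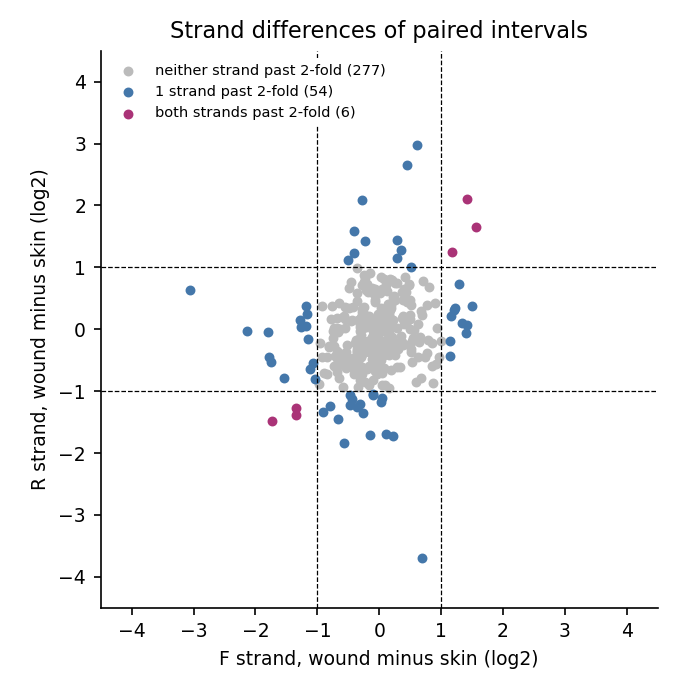
Wound minus skin difference of the F strand against that of the R strand for the 337 intervals with at least 2 measured probes on each; dashed lines mark 2-fold. The 6 intervals with both strands past 2-fold lie in the same-sign corners, and 54 have a single strand past 2-fold.

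Probes of one strand resembled each other somewhat more than probes of opposite strands. Within the paired intervals with 2 or more measured probes on a strand, the median absolute gap between the differences of probes was 0.45 on the same strand (4488 probe pairs) and 0.60 across strands (4962 probe pairs). The median gap between the F and R means of an interval was 0.47. Means over at least 2 probes vary less than single probes, so this gap cannot be set against the 2 others.

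Both strands were higher in chr16:84702353-84710928, chr1:183783306-183834531 and chr12:110944403-110988678. In the first, the 3 F probes read 20.8 to 149 units in skin and 106 to 267 in wound (1.56 ± 0.84) and the 3 R probes 126 to 193 and 471 to 715 (1.66 ± 0.015). Every R probe of this interval was higher by nearly the same amount. In the second, F was 1.42 ± 0.58 higher over 4 of 10 probes, all inside the marked blocks, and R 2.10 ± 0.36 over 3 of 4. In the third, F was 1.18 ± 0.64 higher over 10 probes and R 1.25 ± 0.70 over 5 of 9. One of those 10 F probes did not share the increase, at -0.06. The next in order, chr8:87504644-87513694, had 1.29 on F and 0.73 on R, with probes from -1.39 to 3.96 on F.

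Both strands were lower in chr16:43623581-43642715, chr14:22267795-22319045 and chr6:100162756-100178531. In the first, all 10 F and all 10 R probes were detected on both arrays. The F probes read 188 to 17235 units in skin and 145 to 6014 in wound, a difference of -1.74 ± 0.44 with every probe lower. The R probes read 53.5 to 385 and 29.4 to 116, a difference of -1.48 ± 0.71, with 9 of 10 lower and the other at 0.02. This was the most fully measured pair to differ on both strands. In the second, F stood at -1.34 ± 0.78 over 7 of 10 probes and R at -1.39 ± 0.60 over 5 of 10, and in the third F at -1.34 ± 0.41 over 2 of 5 and R at -1.27 ± 0.78 over 3 of 5. On R of the second, 1 further probe was detected in wound only, at 2.48 units in skin and 25.9 in wound. Another there was detected in skin only, at 71.8 units in skin and 14.5 in wound. The fourth in order, chr1:162965309-162970704, had -0.90 on F and -1.34 on R.

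The 6 intervals whose strands differed most from each other combined 1 changed strand with a second whose mean over measured probes stayed under 2-fold. In chr11:96111499-96126224 the R strand was 2.09 ± 0.93 higher over 2 measured probes, at 284 and 1602 units in skin and 910 and 12771 in wound, while F stood at -0.28 ± 0.61 over 4. The R probe at 2.75 lay in a marked block, and the probe outside gave 1.44. In chr2:94008913-94019798 the R strand was 2.66 ± 0.13 higher over 4 probes and F 0.44 ± 0.69 over 3. The R strand of chr12:74135916-74142780 was 2.97 higher, and its F strand stood at 0.61 ± 0.99 over 5 probes. In these 3 intervals the change was on R, and every measured R probe was past 2-fold.

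In the other 3 most of the change came from 1 probe. The R strand of chr4:98943050-98959998 and the F strand of chr12:77544397-77564122 are the discordant decreases given above, and their opposite strands stood at 0.70 ± 1.39 and 0.64 ± 1.23. The F strand of chr2:168804720-168854970 was at -2.13 from probes at -4.02 and -0.24, with R at -0.03 ± 0.18 over 2 of 3 probes. The third R probe was detected in wound only, at 3.21 units in skin and 55.7 in wound, and is not in that mean. Without the marked blocks that F strand was at -0.24. With 1 remaining probe taken as enough, 39 of the 40 named strand values could be computed without those blocks. All 39 had the same sign, and the chr2:168804720-168854970 F strand was the one of 31 past 2-fold that no longer was. Many of these values rest on 1 probe, and strands with no probe in the marked blocks could not change.

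Some strands that differed 2-fold had neighbours that did the same, while most were not linked to such a neighbour. How many of them had any measured neighbour within 100 kb was not counted. Measured strands of the same letter within 100 kb were linked where both were past 2-fold in the same direction, which gave 19 groups holding 48 of the 213 strands. Of 383 neighbours that overlap, 20 had both strands past 2-fold and all 20 ran the same way, while in 80 a single strand was past it. Of 408 neighbours lying apart, 21 had both past 2-fold and 19 ran the same way, while in 88 a single strand was past it. The other probes of the array were not linked in this way. It is therefore not known whether neighbouring intervals differ together more often than other neighbouring targets. Overlapping intervals can share transcript and even probe target, which was not tested. There were 7 groups of at least 3 strands.

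The largest group, on the F strand at chr12:110842149-110988678, held 5 strands that were higher in wound by 1.18 to 2.57 on the log2 scale, over 20 probes. All 9 F strands measured in that span had positive means, from 0.53 to 2.57. In addition to chr12:110894095-110899517, the F strand of chr12:110973190-110987668 was 2.09 ± 0.41 higher over 3 probes, none of them in a marked block. The 3 R strands measured in the span stood between 0.22 and 1.25. The R values in the same span were thus positive too, with 1 past 2-fold.

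The second group was the chromosome 5 F-strand run described above, chr5:14923900-15170100. Its 4 strands, all that were measured there, lay between -3.56 and -1.17, and no R strand was measured in the span. Near-identical copies of a sequence could give probes in separate intervals the same signal, and this was not tested because the probe sequences are not in the files. The third, on the R strand at chr13:28490070-28975446, held 3 strands higher by 1.32 to 1.54, within 6 measured R strands that ranged from 0.25 upward. The strands of that span at 0.25 and 0.34 had 1 probe each outside the marked blocks, at 1.30 and 1.498.

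Of the 4 other groups of 3 strands, 3 were lower in wound. On F at chr16:43623175-43642715 the strands lay between -2.03 and -1.74. This span holds the pair with both strands lower, and the F strand of chr16:43623175-43624069 at its start was at -2.03 ± 0.045 over 3 probes. On F at chr1:139795171-139848243 the values lay between -1.70 and -1.05, and the other F strands measured there stood at -0.42 and -0.32. On F at chr6:31170350-31293337 the values lay between -2.07 and -1.27. Each of these spans had 1 measured R strand, at -1.48, -0.47 and 0.04. The R strand on chromosome 6 (chr6:31017987-31174287) reaches into the span only at its start, and its own F strand was at 0.07. Just before the span, the R strands of chr6:31078802-31079644 and chr6:31115515-31168433 were lower in wound, at -1.67 ± 0.11 and -1.96 ± 0.19 over 3 probes each. Lower values on chromosome 6 thus lay on F within the span and on R next to it.

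The last group of 3, on R at chr5:22887983-22939658, was higher by 1.17 to 1.96. Its neighbours on the same strand did not all follow: 6 R strands measured in the span ranged from -0.32 to 1.96. The R strands of chr5:22887983-22939658 (1.90 ± 0.14, 3 probes) and chr5:22890322-22939119 (1.96 ± 0.031, 3 probes) stood beside chr5:22928221-22939127, which lies within the same stretch and was at -0.05 ± 0.32 over 3 probes. Overlapping intervals here gave different values from different probes on the same strand.

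**Figure D5:**
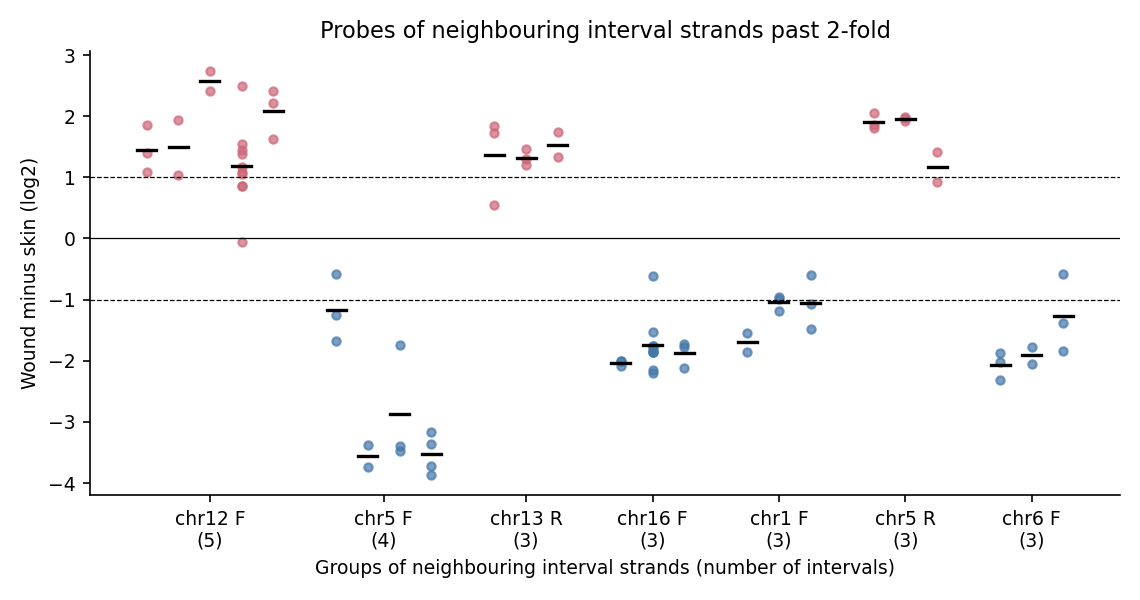
Wound minus skin difference of each measured probe (points) and of each strand (bars, mean over probes) in the 7 groups of at least 3 neighbouring strands past 2-fold in the same direction; dashed lines mark 2-fold and the number of strands is in parentheses. Of the 24 strands, the 5 of the chromosome 12 F group are all higher and the 4 of the chromosome 5 F group all lower.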

How the data were processed

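Agilent 1-colour scanner files were used; the deposited processed signal is an intensity, background-subtracted and spatially detrended by Feature Extraction 10.7.3.1 on a grid annotated to mm9, per the file headers. The authors' deposited log2 table served only to look for the interval probes, none of which it holds, and to name gene probes. The level of a probe was log2 of its processed signal minus the 75th percentile over all non-control probes of the array. Spots with an outlier mark on either array were left out. A probe counted as detected where the software called it well above background, and as measured where detected on both arrays. A strand was the mean over at least 2 measured probes, and 2-fold was the threshold. With 1 array a side there was no test. Named were the 8 strands with the largest increase and the 8 with the largest decrease, the 4 intervals in each direction by the smaller change of both strands, the 6 with the largest difference between strands, and the 4 largest bounds in each direction. Neighbour groups and array blocks were described after the values had been seen. The members and lists were chosen with earlier results of these data known. Alternatives included quantile normalization and limma's normexp with an offset of 50 on the median spot and background signals, as mean signals were not used here. The calculation was tested on simulated data. R 4.3.3, limma 3.58.1, Python 3.11.15, pandas 2.3.3 and numpy 2.4.6 were used. The number of arrays limits the precision.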

Additional observations from a re-analysis of the deposited data

How the results depend on the processing

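No paired analysis was possible because the interval probes are on 1 array per population. The values below are listed as probes higher, probes lower, strands higher, strands lower, then intervals with both strands higher, both lower, opposite, and 1 strand past 2-fold (651, 694, 92, 121, 3, 3, 0 and 54 as reported), and only those that moved by over 1.5 times are given. Normexp background with an offset of 50, which pulls dim probes together, left 183 and 261 probes, 30 and 51 strands, 0 intervals with both strands higher, 0 with both lower and 22 with 1 strand. Keeping outlier-marked spots gave 140 strands higher and 5 intervals with both higher. Taking the brightest probe of a strand gave 160 and 188 strands, 6 intervals with both lower, 6 opposite and 98 with 1 strand, and turned the F strand of chr12:110944403-110988678 from 1.18 to -0.0561. A 4-fold threshold gave 129 and 136 probes, 14 and 17 strands, 0 intervals with both higher, 0 with both lower and 7 with 1 strand. A 1.5-fold threshold gave 1278 and 1696 probes, 242 and 349 strands, and 7, 15, 6 and 144 intervals. Requiring detection on at least 1 array gave 1242 and 2200 probes, and no filter 1892 and 2747. Strands with at least 1 measured probe gave 260 and 263, with 7 intervals both higher, 2 opposite and 147 with 1 strand, and strands with at least 3 gave 43 and 69.

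Chosen after seeing the data, levels of at least -4 on both arrays left 47 strands higher, 1 interval with both higher and 27 with 1 strand. Leaving out the marked row blocks left 285 and 436 probes, 44 and 74 strands, 1 interval with both higher and 26 with 1 strand. Requiring every measured probe past 2-fold left 45 and 45 strands. Leaving out the row block with skin outlier marks gave 88 and 111 strands. These settings use fewer probes or strands. Both scalings by another 75th percentile, quantile normalization and the strand median moved none of the counts by over 1.5 times.

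For detection of pairs (both strands, F alone, R alone, neither), the looser positive and significant call moved F alone, R alone and neither to 21, 14 and 6 in skin and to 40, 37 and 11 in wound. Requiring all probes of a strand gave 139, 167, 205 and 554 in skin, and moved both strands to 65 and neither to 703 in wound. Without the marked blocks F alone and R alone in skin were 101 and 120, and in wound both strands, R alone and neither were 460, 197 and 110.

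Of strands past 2-fold, 43.2% were higher as reported, 50.7% after quantile normalization, 53.6% with outlier spots kept and 37.0% with normexp, so which direction is the more frequent depends on these choices. Of 32 named strand values past 2-fold, 22 stayed past it with normexp, 28 with the brightest probe and all 32 with the other scalings, the strand median or outlier spots kept. The cause of these shifts was not tested.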

Other observations

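A further 70 probes of the same A_30_P series are named for a transcript or carry no strand letter, and the interval rule leaves them out. Among them H19, an imprinted noncoding RNA, had all 5 probes detected on both arrays and was 7.04 ± 0.14 (SD over probes) higher in wound on the log2 scale, or 132-fold. A pair of nuclear RNAs that lie side by side in the genome, listed as NEAT1 and NEAT2, were lower in wound, at -1.03 ± 0.16 over 5 probes and -1.19 ± 0.12 over 3. TUG1 was at 0.50 ± 0.069 over 5 probes. XIST, the RNA of the inactive X chromosome, was at -0.75 ± 0.17 over 5 probes, while TSIX, its antisense partner, was detected by 0 of 5 probes in skin and 1 in wound. For HOTAIR, lincP21, PINC and BRN1-A a single probe each was measured on both arrays. These values also come from 1 array a side and have no test.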
